A study of Mus musculus with 2 samples.

Results

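The genes described here are interferon response genes, a list of 39 mouse genes that cells raise when an interferon binds its receptor. They were matched by symbol to the gene table of a single-cell RNA sequencing study of mouse pancreatic tumors. Of the 39, 38 were found among the 32285 genes counted, and Mx1 was not analysed here. The list was divided by known role into 4 transcription factors, 16 antiviral effectors, 4 nucleic acid sensors, 9 interferon-inducible GTPases and 5 regulators and others.

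Tumors were grown by injecting KPC cells, a mouse pancreatic ductal adenocarcinoma line, into the pancreas of male mice, and dissociated whole without sorting. There were 2 libraries, 1 labelled FLOX and 1 labelled MCT1-KO. MCT1 is the lactate transporter encoded by Slc16a1. The MCT1-KO mice were Col1a2-CreERT2 mice given tamoxifen before implantation, so that Slc16a1 should be deleted in cells with an active Col1a2 promoter, which are fibroblasts and pancreatic stellate cells (PSCs) and not the implanted tumor cells. The FLOX mice carried the floxed allele as controls. The study describes tamoxifen or corn oil given before implantation, without stating which was given to the mice of the FLOX library. The number of mice behind each library is not given in the sources used here, and the labels state no age. With 1 library per group there were no replicates, so no test between groups was possible, and every interval below is a 95% interval that covers counting error only. A difference between the libraries cannot be told apart from a difference between mice, dissociations or library preparations.

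Interferons are secreted signals of 3 types. Type I interferons such as interferon beta bind Ifnar1 and Ifnar2, and interferon gamma, made by T and NK cells, binds Ifngr1 and Ifngr2. Both receptors act through JAK kinases. Type I signals activate a complex that holds Stat2 and Irf9 and binds the interferon-stimulated response element (ISRE), and interferon gamma signals act on the gamma-activated site (GAS). The induced genes block viral RNA and proteins, sense foreign nucleic acid and mark infected vacuoles, and in tumors they accompany antigen presentation and T cell recruitment.

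The 2 DNA elements can be seen in the promoters of the genes on which the results below turn. Each line gives 80 bases upstream of the RefSeq transcription start, 5′ to 3′ along the gene, from GRCm38.p6, with matches in capitals. The stretches lie at different distances from the start, from -94 to -15 for Gbp2, the nearest, to -174 to -95 for Ifit3, the farthest. For Irf1 the capitals mark the GAS, TTCNNNGAA. For the others they mark the ISRE core, which is GAAA, any pair of bases and GAAA again, on either strand, with overlapping matches joined.

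Ifit1, chr19:34640759-34640838, plus strand: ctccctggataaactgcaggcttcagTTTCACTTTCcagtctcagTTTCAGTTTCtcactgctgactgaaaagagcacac

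Ifit3, chr19:34583355-34583434, plus strand: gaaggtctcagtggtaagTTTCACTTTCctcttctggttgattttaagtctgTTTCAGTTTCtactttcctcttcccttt

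Isg15, chr4:156200846-156200925, minus strand: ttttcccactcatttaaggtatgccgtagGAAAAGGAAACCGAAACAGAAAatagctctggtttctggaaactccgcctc

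Rsad2, chr12:26456528-26456607, minus strand: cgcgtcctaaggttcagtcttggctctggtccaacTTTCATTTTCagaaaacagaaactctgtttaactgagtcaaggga

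Bst2, chr8:71537555-71537634, minus strand: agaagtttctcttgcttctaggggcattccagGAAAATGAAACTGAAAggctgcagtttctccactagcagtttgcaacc

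Gbp2, chr3:142620569-142620648, plus strand: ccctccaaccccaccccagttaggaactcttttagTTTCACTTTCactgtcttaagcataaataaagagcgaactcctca

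Irf1, chr11:53769888-53769967, plus strand: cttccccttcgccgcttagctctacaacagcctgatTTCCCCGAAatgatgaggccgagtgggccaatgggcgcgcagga

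Windows of 250 bases before to 50 bases after the start were held for 30 of the 38 genes. The ISRE core was found in 16 of these 30, against 3.46% of 27025 genes with such a window. The GAS was found in 9 of 30, against 8.13% of those genes. The 5 genes with both were Oas1a, Bst2, Gbp5, Gbp7 and Igtp, and in the Bst2 window its GAS match, TTCCAGGAA, runs into the first ISRE match printed above. A match is a string of letters only, and binding was not measured here. The windows of Oas2, Rtp4, Dhx58, Zbp1, Gbp4, Iigp1, Usp18 and Parp14 were not among those used.

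The 38 genes lie on 14 chromosomes, several in family clusters (GENCODE vM21, GRCm38). The Ifit genes sit side by side on chromosome 19, from Ifit2 at chr19:34550694-34576419 to Ifit1 at chr19:34640871-34650009. Gbp5, Gbp7, Gbp3 and Gbp2 sit together on chromosome 3, from chr3:142493978-142522344 to chr3:142620602-142638008. The 2 most counted genes are single copies, Irf1 at chr11:53770014-53778374 and Bst2 at chr8:71534255-71537456. Near-identical copies share 3′ sequence with some members. Of the 60-base words in the last 500 bases of Oas1a, 51.2% also occur in Oas1g, and for Ifit3 12.9% occur in Ifit3b, so the split of their reads is uncertain. Exons of Rtp4 and of Gbp7 overlap a predicted gene (13.9% and 11.3% of exon bases), and their counts are uncertain for the same reason.

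Barcodes with at least 500 UMIs (unique molecules counted), 200 to 5000 genes and a mitochondrial share up to 8% were kept, 8739 in the FLOX library and 11689 in the library labelled MCT1-KO, with 61149689 and 81494894 UMIs. The 2 libraries shared 59 barcodes. Cells were assigned to a class by fixed marker genes, and 2573 and 3801 cells, many of low depth, passed no marker level and stayed unclassified. The main classes were tumor-like (2075 and 3799 cells), myeloid-like (2187 and 1895), T/NK-like (491 and 424) and PSC-like cells (236 and 319). Slc16a1 itself was not lower in the library labelled MCT1-KO. In PSC-like cells it had 86 and 97 UMIs, 35.5 and 39.9 UMIs per 1000000 UMIs (CPM), a ratio of 1.12 (0.832 to 1.52), and in tumor-like cells the ratio was 1.22 (1.13 to 1.32). The kit named in the labels reads the 3′ end of transcripts, and which exons were floxed is not given in the sources used here, so whether these counts can show the deletion is not known. The study assessed MCT1 in its own processing of these single-cell data and by other assays. That processing was not repeated and those assays were not analysed here. Below, MCT1-KO cells are the cells of the library so labelled.

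3 other features differed between the libraries and touch every result below. Heat shock genes were lower in the library labelled MCT1-KO in each main class, with ratios from 0.358 in myeloid-like to 0.485 in PSC-like cells. Acinar digestive enzyme genes, which these classes do not make, were higher, at 80.8 against 1308 CPM in tumor-like cells and at 345 against 18303 CPM in barcodes of 10 to 100 UMIs, which hold free RNA. Median depth was lower in the library labelled MCT1-KO in the 4 main classes, 14894 against 12981 UMIs in tumor-like and 10898 against 7161 UMIs in PSC-like cells. The part of the acinar genes and of depth in the results was not tested on its own. Alternative settings included a total without acinar, heat shock, mitochondrial and haemoglobin genes and a higher UMI minimum. All 46 alternative summed ratios stayed below 1. Values for cells without the heat shock gene Hspa1a are given below.

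The summed level of the 38 genes was lower in the library labelled MCT1-KO in all 8 classes with at least 50 cells per library. Tumor-like cells, which carry the epithelial and KPC markers, had 2358 CPM in the FLOX library and 1329 CPM in the library labelled MCT1-KO, which is a ratio of 0.564 (0.557 to 0.570). The 2592 CPM of FLOX myeloid-like cells compared with 2050 CPM in the other library, a ratio of 0.791 (0.777 to 0.805). The tumor-like ratio was the lowest of the 8 and the myeloid-like ratio the highest, but counting intervals settle neither rank. The endothelial-like interval (0.535 to 0.649) holds the tumor-like ratio, and the PSC-like interval (0.717 to 0.790) overlaps the myeloid-like one.

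T/NK-like cells had 1282 against 903 CPM, a ratio of 0.705 (0.656 to 0.756). PSC-like cells, the class in which Cre should act, had 1582 against 1191 CPM, a ratio of 0.753 (0.717 to 0.790). The level was thus also lower in the classes that Cre should leave intact. Among the smaller classes the ratio was 0.610 in neutrophil-like, 0.589 in endothelial-like, 0.648 in dendritic-like and 0.641 in B-like cells, each with an interval below 1. Acinar-like cells, with 17 and 126 cells, gave 0.915 (0.599 to 1.44), which counting error alone does not separate from 1.

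**Figure D1:**
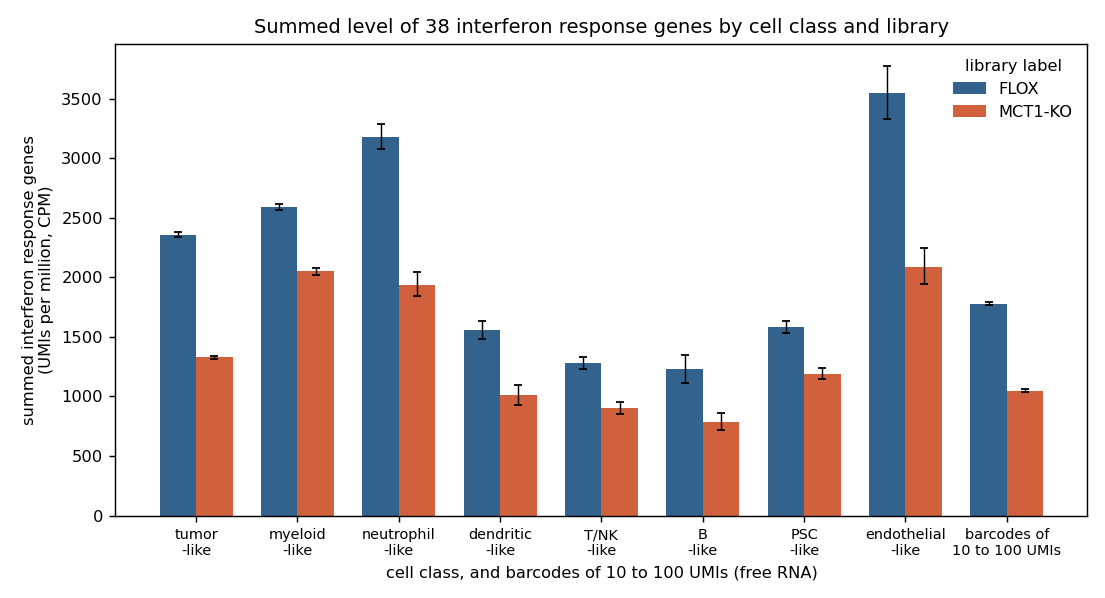
Summed UMIs of the 38 interferon response genes per 1000000 UMIs (vertical axis) in the 8 classes with at least 50 cells per library and in barcodes of 10 to 100 UMIs, for the FLOX library (blue) and the library labelled MCT1-KO (orange). Bars start at 0 and lines are 95% Poisson intervals, and the orange bar is the lower of each pair, with 2358 against 1329 CPM in tumor-like cells.

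Free RNA was lower too. Barcodes of 10 to 100 UMIs held 1779 CPM of the 38 genes in the FLOX library and 1050 CPM in the other, a ratio of 0.590 (0.582 to 0.599). Of the 35 members with 50 UMIs there, 22 were lower and none was higher by at least 1.5-fold, against 9.56% and 5.28% of all genes. At most 10.6% and 9.51% of the UMIs of a main class came from free RNA by the smallest ratio of another class's markers. After subtracting free RNA at that share, the summed ratio was 0.562 in tumor-like, 0.805 in myeloid-like, 0.716 in T/NK-like and 0.770 in PSC-like cells.

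In tumor-like cells 35 of the 38 genes had at least 50 UMIs over both libraries, and all 35 had a ratio below 1. A gene is counted here as past the fold when its levels differed at least 1.5-fold. By this rule 22 of the 35 were lower in the library labelled MCT1-KO and none was higher, while among all 12890 genes with 50 UMIs in this class 7.48% were lower and 6.18% higher. The median ratio of the 35 was 0.619, against 1.02 over all genes of the class. Gbp4, Igtp and Ifi47 had 0 to 3 UMIs per library and are left aside. Exons of each overlap another gene in part (8.01% of exon bases for Igtp and 4.49% for Ifi47). Whether these low counts mean absence of the RNA was not tested.

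Among the transcription factors, Irf1, the primary interferon gamma target that in turn drives Gbp genes, had the most UMIs of the list. It stood at 517 CPM in FLOX and 224 CPM in MCT1-KO tumor-like cells, a ratio of 0.433 (0.422 to 0.445). Irf9, the DNA-binding partner of Stat2, stood at 21.2 against 13.7 CPM, a ratio of 0.643. Stat2 and Irf7, the factor that amplifies type I interferon, had ratios of 0.700 and 0.681. All 4 were thus lower in the library labelled MCT1-KO, Irf1 by the most.

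The antiviral effectors spanned the widest range. Bst2, which tethers budding virions to the membrane, stood at 270 against 116 CPM, a ratio of 0.431 (0.415 to 0.447). Oas2, which makes 2-5A to activate RNase L, stood at 5.91 against 1.55 CPM, from 149 and 66 UMIs, the lowest ratio of the 35 at 0.262 (0.193 to 0.352). Rsad2 (viperin), which makes a chain-terminating nucleotide, was close to it at 12.6 against 3.35 CPM, a ratio of 0.267 (0.217 to 0.326).

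The Ifit proteins bind viral RNA that lacks host cap marks. Ifit3 stood at 39.5 against 15.4 CPM, a ratio of 0.390 (0.352 to 0.430), and Ifit1 at 38 against 18.4 CPM, a ratio of 0.485. Ifit2, their neighbour on chromosome 19, stood at 17.4 against 15.8 CPM, a ratio of 0.913 (0.808 to 1.03). Members of one family therefore differed in ratio by more than counting error. Isg15, a ubiquitin-like modifier, had 61.0 against 38.6 CPM, a ratio of 0.633, and Isg20, an RNA exonuclease, 59.1 against 50.3 CPM, a ratio of 0.851. Oasl2, a relative of the Oas enzymes, had 37.2 against 20.3 CPM, a ratio of 0.547. Of the 16 effectors 10 were past the fold and 3, Ifit2, Ifit3b and Oas3, had an interval that holds 1.

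The sensors detect nucleic acid in the cytosol. Zbp1, which binds Z-form nucleic acid and can start necroptosis, stood at 79.0 against 28.8 CPM, a ratio of 0.364 (0.339 to 0.391). The RNA helicases Ifih1 (MDA5) and Ddx58 (RIG-I) had ratios of 0.544 and 0.619, and Dhx58 (LGP2) 0.691, the last on only 71 and 83 UMIs. The 4 sensors were all lower in the library labelled MCT1-KO, 3 of them past the fold.

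The GTPases, which attack the membranes of pathogen vacuoles and are strongly induced by interferon gamma, were lower too, 3 of the 6 counted by the fold. Iigp1 (Irga6) stood at 313 against 204 CPM, a ratio of 0.653, and Gbp2 at 229 against 154 CPM, a ratio of 0.671. Gbp5, which promotes inflammasome assembly, stood out at 38.5 against 17.2 CPM, a ratio of 0.448 (0.406 to 0.493), and Irgm1, an autophagy-linked GTPase, had a ratio of 0.684. Summed over each group, the ratio was 0.653 for the GTPases, 0.650 for the regulators, 0.550 for the effectors, 0.462 for the transcription factors and 0.437 for the sensors. Irf1 carried 517 of the 588 CPM of the factors and Zbp1 79.0 of the 112 CPM of the sensors. The median ratio over the counted genes was 0.662 for both the GTPases and the factors, 0.606 for the effectors, 0.580 for the sensors and 0.589 for the regulators, and differences between groups were not tested. Among the regulators, Usp18, which removes Isg15 and blunts receptor signalling, had a ratio of 0.569, and Ifi35 0.878, the highest of its group.

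Among the counted genes of the tumor-like class, the 15 with the ISRE core in their window had a median ratio of 0.634 and the 13 without it 0.619, values that lie close together. Myeloid markers, which tumor cells lack, summed to 1133 against 741 CPM in this class, and stromal markers to 903 against 663 CPM, and their part in the result was not tested.

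**Figure D2:**
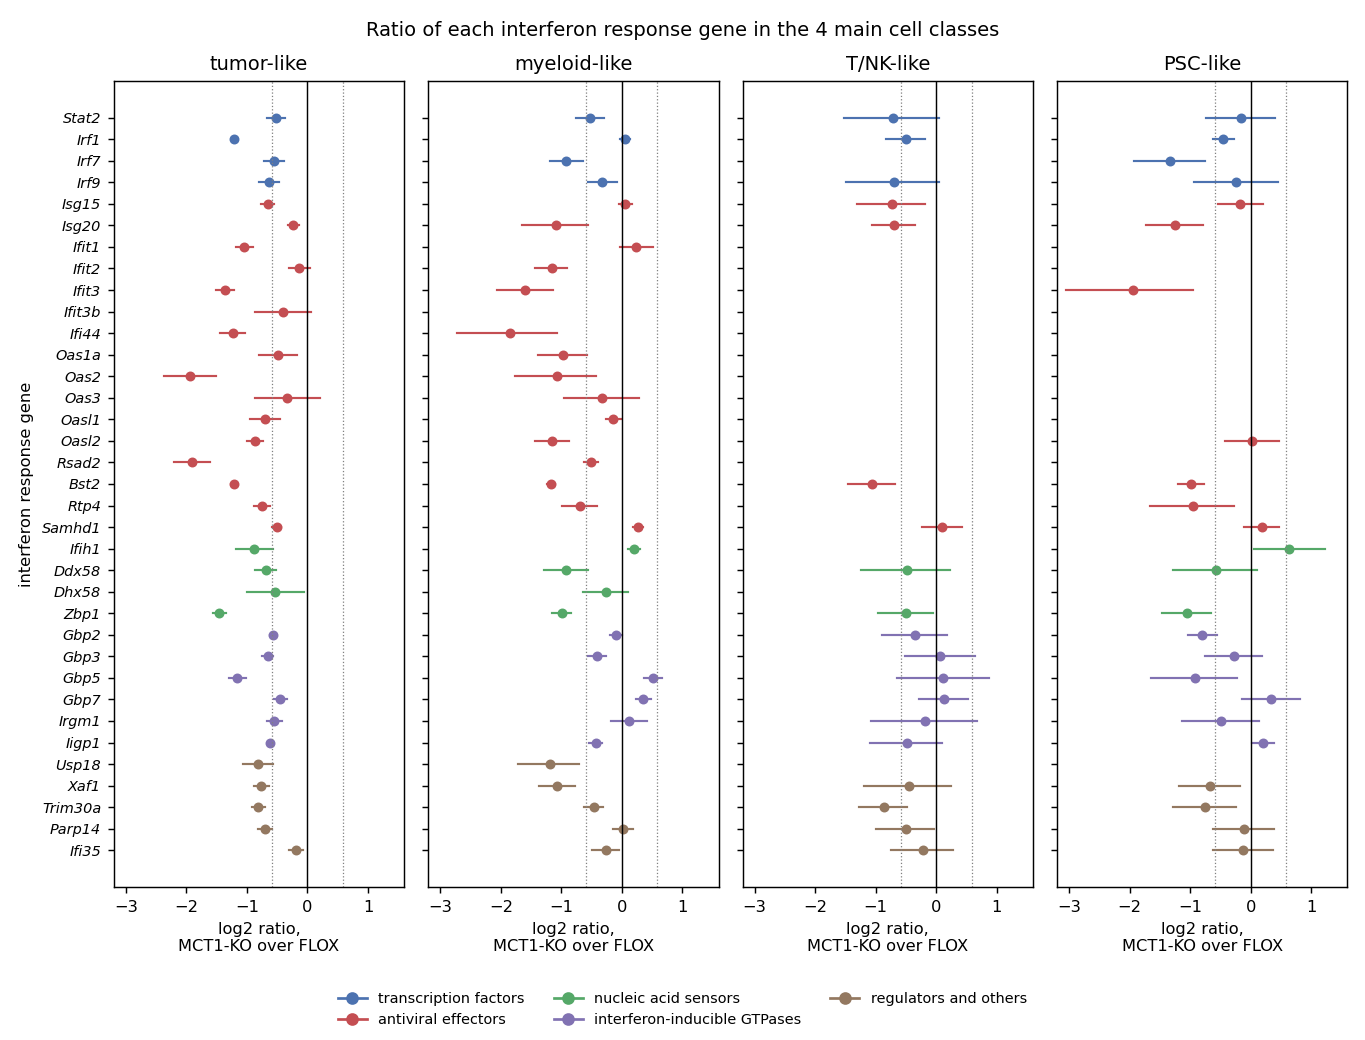
The log2 ratio of MCT1-KO over FLOX (horizontal axis) for each interferon response gene (rows) in the 4 main classes, coloured by role, for genes with at least 50 UMIs in the class. Lines are 95% counting intervals, the solid line is no difference and the dotted lines mark 1.5-fold. All 35 points lie left of the solid line in tumor-like cells, and 9 of 34 lie right of it in myeloid-like cells.

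Myeloid-like cells, which included a set led by mast cell protease genes (described below), showed a divided pattern. Of the 34 genes with enough UMIs 14 were lower by the fold and none was higher, against 9.95% and 6.35% of 10990 genes in the class. Their median ratio was 0.734, against 0.995 over all genes. 23 of the 34 had an interval below 1, 4 had one above 1 and 7 had one that holds 1. The shares of all genes with such intervals are not reported here.

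Bst2, the member with the most UMIs in this class, stood at 595 against 265 CPM, a ratio of 0.445 (0.426 to 0.466). Without Bst2 the summed ratio of the class was 0.894 in place of 0.791. Ifit3 stood at 16.1 against 5.33 CPM, a ratio of 0.331 (0.239 to 0.453), and Ifi44, an interferon-induced cytosolic protein, at 6.15 against 1.71 CPM, a ratio of 0.277 from 83 and 16 UMIs. Zbp1 stood at 90.1 against 45.2 CPM, a ratio of 0.501, and Irf7 at 30.4 against 16.1 CPM, a ratio of 0.530.

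Other members, effectors among them, were level or higher in the library labelled MCT1-KO. Ifit1 had a ratio of 1.18 (0.980 to 1.42). Irf1 stood at 179 against 185 CPM, a ratio of 1.04 (0.975 to 1.1), and Isg15 at 125 against 129 CPM, a ratio of 1.04 (0.963 to 1.12). Gbp5 stood at 54.1 against 77.4 CPM, a ratio of 1.43 (1.29 to 1.59), and Gbp7 at 88 against 113 CPM, a ratio of 1.28 (1.18 to 1.39). Samhd1, which depletes nucleotides needed for viral DNA, had a ratio of 1.21 (1.14 to 1.28), and Ifih1 1.15 (1.07 to 1.23). The GTPases as a group had a summed ratio of 0.965 (0.930 to 1.0002) in this class, and the effectors 0.685 (0.667 to 0.703).

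In T/NK-like cells 19 members had at least 50 UMIs. Of these 6 were lower by the fold and none was higher, against 9.65% and 5.75% of 6735 genes, and the median ratio was 0.714 against 0.973 over all genes. Bst2 stood at 125 against 59.8 CPM, a ratio of 0.478 (0.364 to 0.622). Trim30a, a ubiquitin ligase that restrains Toll-like receptor signals, stood at 108 against 59.1 CPM, a ratio of 0.549 (0.415 to 0.718). Isg20 stood at 126 against 77.2 CPM, a ratio of 0.614 (0.480 to 0.780). Zbp1, the most counted sensor of this class, stood at 67.9 against 48.0 CPM, a ratio of 0.708 (0.513 to 0.967). Irf1 stood at 129 against 91.3 CPM, a ratio of 0.706.

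The 6 counted GTPases did not separate from 1 in this class. Gbp7 stood at 63.6 against 69.3 CPM, a ratio of 1.09 (0.818 to 1.45), and their summed ratio was 0.933 (0.796 to 1.09). With 12 of 19 members holding 1 in their interval, the depth of this class does not show differences of this size gene by gene. Myeloid markers were also unequal here, with none of the 11 at 0 and a sum of 2066 against 829 CPM, and their part in the result was not tested.

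In PSC-like cells, marked by collagens and other stromal genes, 24 members had at least 50 UMIs. Of these 10 were lower by the fold and 1 was higher, against 11.9% and 9.12% of 8156 genes, with a median ratio of 0.723 against 0.965 over all genes. Irf7 stood at 37.2 against 14.8 CPM, a ratio of 0.398 (0.263 to 0.593). Bst2 stood at 222 against 113 CPM, a ratio of 0.506 (0.436 to 0.587), and Isg20 at 54.5 against 23.0 CPM, a ratio of 0.423. Zbp1 had 66.5 against 32.1 CPM, a ratio of 0.483 (0.363 to 0.636).

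Not every member was lower. Iigp1, at 187 against 216 CPM, had a ratio of 1.16 (1.02 to 1.31), and Ifih1, at 17.8 against 27.5 CPM from 43 and 67 UMIs, a ratio of 1.55 (1.04 to 2.33). Gbp2 stood at 159 against 91.7 CPM, a ratio of 0.575, and Irf1 at 262 against 192 CPM, a ratio of 0.732. Among the regulators, Xaf1, which promotes apoptosis, stood at 36.7 against 23.0 CPM, a ratio of 0.627.

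The PSC-like result depends on which cells are counted. In the cluster that holds most of the class, led by Col1a2 and Cxcl13, with 176 and 278 of its cells, the summed level was 1319 against 1178 CPM, a ratio of 0.893 (0.844 to 0.944). The 60 FLOX and 41 MCT1-KO cells of the class outside this cluster stood at 2461 against 1317 CPM. Naming whole clusters by the same markers gave 0.923 (0.881 to 0.968), so the size of the PSC-like difference is uncertain and its direction was the same. Myeloid markers summed to 2103 against 3530 CPM in PSC-like cells, and their part in the result was not tested.

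Across the 4 main classes 19 members had enough UMIs in every class, and 10 of them had a ratio below 1 in all 4. Bst2 was the single member lower by the fold in all 4, with ratios of 0.431, 0.445, 0.478 and 0.506. Over all members, 12 had a ratio above 1 in at least 1 of these classes in which they had 50 UMIs. The shares of all genes that meet these conditions are not reported here, so the counts only describe the members.

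The smaller classes gave fewer countable members. In neutrophil-like cells 14 of 23 members were lower by the fold, against 11.6% of 4266 genes, and Gbp5 alone was higher, against 13.9%. Rtp4 had 114 against 18.9 CPM, a ratio of 0.166, and Rsad2 188 against 37.8 CPM, a ratio of 0.201, while Irf1 had 300.5 against 359 CPM, a ratio of 1.2 (1.01 to 1.41). The effectors as a group had a summed ratio of 0.455 and the transcription factors 1.06 (0.915 to 1.22) in this class. In endothelial-like cells, with 56 and 102 cells, 7 of 9 members were lower by the fold, against 14.2% of 2132 genes. Iigp1 stood there at 681 against 416 CPM, and Rsad2 was higher at 80.7 against 140 CPM, from 23 and 49 UMIs, the single member higher by the fold, against 9.15% of genes.

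Within each library the level of a member depended on the cell class. Of the 35 members with at least 50 UMIs in each library's kept cells, neutrophil-like cells held the highest level for 14 in FLOX and 9 in MCT1-KO, and endothelial-like cells for 9 and 14. For 23 members the same class was highest in both libraries, among them Isg15 and Samhd1 in neutrophil-like, Oasl1 and Ifih1 in myeloid-like, Isg20 and Zbp1 in B-like, Iigp1 in endothelial-like and Gbp2 in tumor-like cells. The highest class exceeded the next by more than counting error for 13 members in FLOX and 15 in MCT1-KO. The shares of all genes that meet these conditions are not reported here, so the counts only describe the members. The endothelial-like class was small, with 56 and 102 cells, so its levels are less certain. Of the examples, Isg15, Samhd1, Oasl1, Ifih1 and Iigp1 did so in both libraries, Zbp1 in FLOX alone, and Isg20 and Gbp2 in neither. Irf1 was highest in tumor-like cells of the FLOX library (517 CPM) and in neutrophil-like cells of the other (359 CPM).

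**Figure D3:**
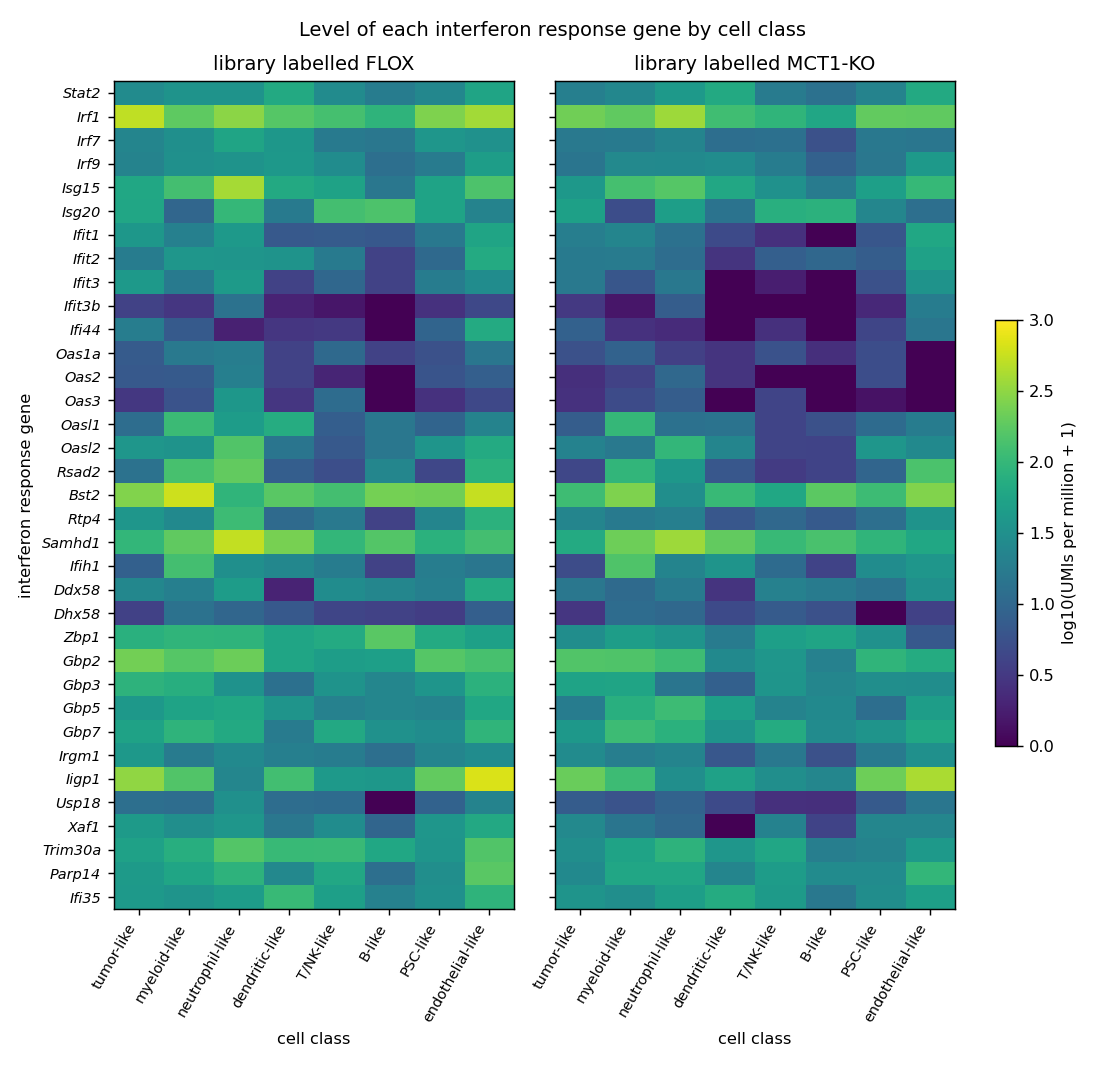
Level of each of the 35 counted interferon response genes (rows) in the 8 classes (columns) of each library, as log10 of CPM plus 1. Lighter cells are higher levels, as for Irf1 in FLOX tumor-like cells at 517 CPM and Iigp1 in FLOX endothelial-like cells at 681 CPM.

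The classes were not made up alike in the 2 libraries. Of the FLOX tumor-like cells 886 lay in a cluster led by heat shock genes, which held 141 of the MCT1-KO tumor-like cells. A cluster led by Vcl and Ank held 1061 of the MCT1-KO and 107 of the FLOX tumor-like cells. By UMIs of the interferon response genes, the heat shock cluster held 40606 of 59489 in FLOX tumor-like cells. In MCT1-KO tumor-like cells it held 4906 of 56705. The tumor-like ratio of 0.564 thus also depends on how the cells were spread over clusters, and the size of that part was not tested. The ratio was therefore also taken within each cluster that held at least 50 cells of a class in both libraries. All 17 such sets had a summed ratio below 1, and 16 had an interval below 1. In the 10 tumor-like sets the ratio ran from 0.548, in a cluster led by the acinar gene Clps, to 0.881 in the heat shock cluster, where FLOX cells had 2471 and MCT1-KO cells 2176 CPM. Without the clusters led by another class's markers the tumor-like ratio was 0.569. In the 5 myeloid-like sets it ran from 0.580 in proliferating cells to 0.977 (0.95 to 1.01) in cells led by Arg1 and F13a1, at 2699 against 2638 CPM. The smallest of the 5 by UMIs was led by Tpsb2 and Mcpt2, which are mast cell protease genes, and gave 0.812.

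**Figure D4:**
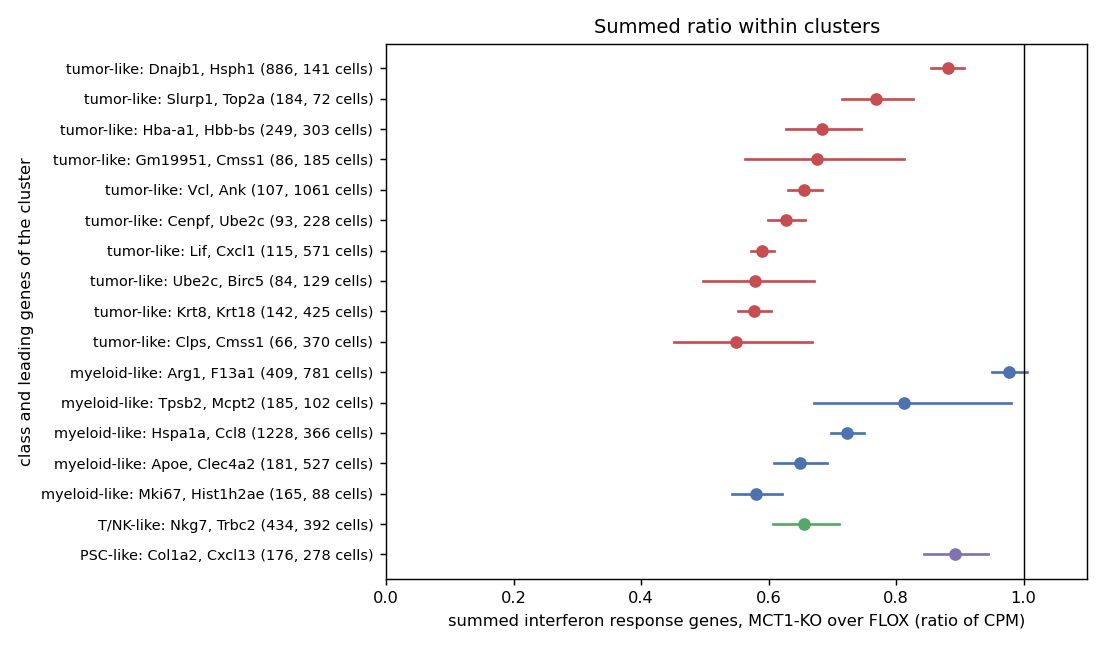
Summed ratio of the interferon response genes, MCT1-KO over FLOX (horizontal axis), within each cluster and class that held at least 50 cells per library, with 95% counting intervals and the number of FLOX and MCT1-KO cells in brackets. All 17 points lie left of 1, from 0.548 to 0.977, and the interval of the myeloid-like set led by Arg1 reaches past 1.

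Because heat shock genes differed between the libraries, cells with no UMI of the stress gene Hspa1a were taken alone. They were 77.3% of FLOX and 98.4% of MCT1-KO tumor-like cells and gave a ratio of 0.548. In myeloid-like cells they were 28.1% and 75.6%, and the ratio was 0.877 (0.853 to 0.900) in place of 0.791. The ratio in these cells was 0.681 in T/NK-like and 0.719 in PSC-like cells.

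To see how the UMIs were spread over cells, each cell was thinned to 1000 UMIs and shallower cells were left out (208 FLOX and 432 MCT1-KO tumor-like cells). Tumor-like cells held a mean of 2.27 and 1.30 UMIs of the 38 genes per 1000. Cells with 5 or more made up 11.5% (10.1 to 13.1) in FLOX and 5.02% (4.31 to 5.81) in MCT1-KO, and cells with none 19.2% and 40.2%. The lower level was thus seen at both ends of the distribution. In myeloid-like cells 13.7% and 11.4% held 5 or more, with intervals that overlap, and 14.2% and 26.2% held none. Without thinning, 4.05% and 10.8% of tumor-like and 2.74% and 4.91% of myeloid-like cells held none.

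In neutrophil-like cells 22.5% of FLOX and 12.0% of MCT1-KO cells held 5 or more UMIs, with 48 and 242 shallow cells left out. The tenth of these cells with the most UMIs held 44.2% and 48.7% of the summed UMIs, and in tumor-like cells it held 35.3% and 44.2%. Such a share also depends on the mean count, which was lower in MCT1-KO cells, at 3.51 against 2.00 UMIs per 1000 in neutrophil-like cells. Whether the UMIs were more concentrated in few cells was therefore not tested.

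**Figure D5:**
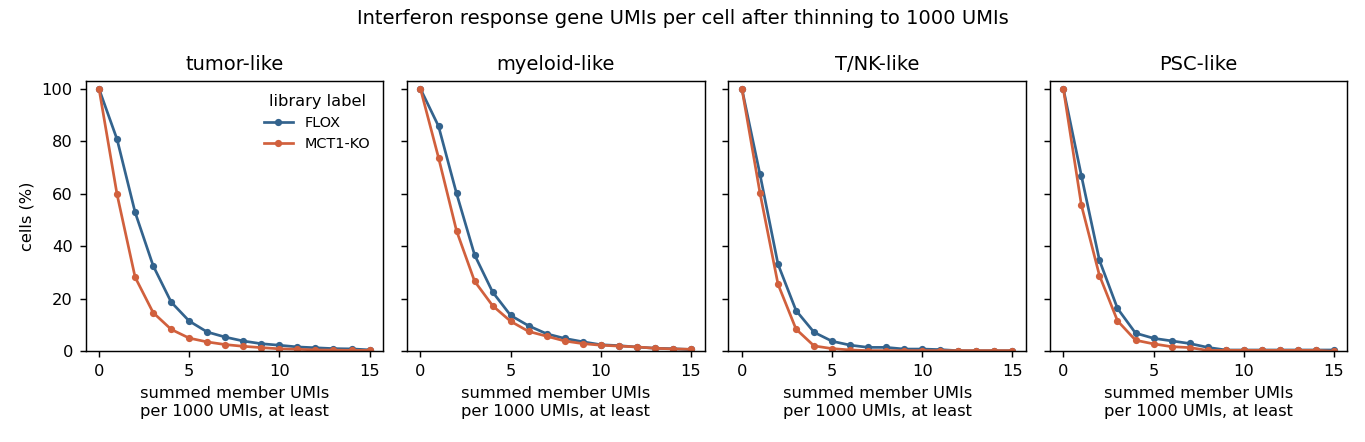
Share of cells (vertical axis, percent) with at least the given number of interferon response gene UMIs per 1000 UMIs (horizontal axis) in the 4 main classes, for FLOX (blue) and MCT1-KO (orange) cells thinned to 1000 UMIs. In tumor-like cells 11.5% of FLOX and 5.02% of MCT1-KO cells reach 5 UMIs.

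The pathway upstream was described by 43 further genes, none of them members. In tumor-like cells 12 of the 37 with enough UMIs were lower by the fold and 1, Tlr7, was higher. The counts were 5 lower and 4 higher of 38 in myeloid-like cells, 5 and 0 of 28 in T/NK-like cells, and 6 and 4 of 28 in PSC-like cells. The shares of all genes lower and higher were 7.48% and 6.18% in tumor-like, 9.95% and 6.35% in myeloid-like, 9.65% and 5.75% in T/NK-like and 11.9% and 9.12% in PSC-like cells, and differences between the classes in these counts were not tested. Their median ratios, 0.773, 0.925, 0.918 and 0.944 in that order, were above the medians of the members in each class.

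Of the ligands, Ifng was counted mainly in T/NK-like cells. It had 769 UMIs in FLOX and 157 in MCT1-KO T/NK-like cells, 408 against 124 CPM, a ratio of 0.303 (0.254 to 0.360). In the other main classes it had at most 14 UMIs per library. Ifnb1 had 110 and 117 UMIs in myeloid-like cells, 8.15 against 12.5 CPM, a ratio of 1.53 (1.17 to 2.00). Ifna2, Ifna4 and Ifnl3 had at most 2 UMIs per library in any main class, too few to compare. Over all kept cells, these included, Ifnb1 had a ratio of 0.906 (0.710 to 1.16), and it had 0.416 (0.256 to 0.656), from 77 and 26 UMIs, in barcodes of 10 to 100 UMIs. For Ifng those ratios were 0.153 and 0.287. T/NK-like cells held 3.08% of the kept UMIs in FLOX and 1.56% in MCT1-KO, so the Ifng ratio over all kept cells also depends on that share.

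In tumor-like cells the receptor chains were closer to level than the members, with a median ratio of 0.873 against 0.619. The ratio there was 0.907 for Ifnar1, 0.765 for Ifnar2, 0.954 for Ifngr1 and 0.840 for Ifngr2. Of these 4 chains 3 had an interval below 1, and the share of all genes with such an interval is not reported here. In myeloid-like cells Ifngr1 stood at 157 against 256 CPM, a ratio of 1.63 (1.54 to 1.73), and in PSC-like cells all 4 chains held 1 in their interval. Jak1 and Jak2, kinases bound to the receptors, were not lower by the fold in any of the 4 main classes.

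Socs1 and Socs3, inhibitors of JAK signals, were higher in PSC-like cells, with ratios of 2.06 (1.51 to 2.82) and 1.77 (1.57 to 1.98). In tumor-like cells Socs1 had a ratio of 1.24 and Socs3 0.726. Cxcl9 and Cxcl10, chemokines that draw T cells, stood at 231 against 118 CPM and 368 against 173 CPM in tumor-like cells, ratios of 0.513 and 0.471. In myeloid-like cells Cxcl9 had 1366 against 1025 CPM, a ratio of 0.750, and Cxcl10 a ratio of 1.07 (1.03 to 1.12). In PSC-like cells Cxcl10 stood at 276 against 330.2 CPM, a ratio of 1.2 (1.08 to 1.33), and Cxcl9 at 105 against 67.4 CPM, a ratio of 0.643. Cxcl10 was thus lower in the tumor-like class and higher in the myeloid-like and PSC-like classes.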

How the data were processed

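Single-cell RNA libraries of tumors from 1 FLOX and 1 MCT1-KO group were used. The deposited values are raw UMI counts per gene and barcode that the authors made with Fastp and SeekOneTools, before any filter on barcodes. The submitters' processing notes name Seurat 4.0.0 and the human build GRCh38, while the gene identifiers are mouse, so which build was used to count is unclear. The labels name a SeekOne MM 3′ kit and the methods either a 10x Genomics Chromium or a SeekOne DD kit, so the kit is unsettled. The 38 members found were placed in 5 role groups, with values for the most counted members and those with the largest ratios. The members and lists were chosen with earlier results of these data known.

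Barcodes were kept by the limits given above. A barcode joined a class when 1 of 9 marker lists reached 3 UMIs and a multiple (1 for tumor-like, 2 for myeloid-like, 5 for PSC-like, 20 for endothelial-like and 10 for the others) of its mean share in barcodes of 10 to 100 UMIs. Those multiples were set after cluster marker levels had been seen, without using the members. Within 1.25-fold of the tumor limit lay 1163 FLOX and 1927 MCT1-KO cells of any class. More than 1 list made a cell mixed (299 and 305 cells). Doublets were not removed from the main values. Clusters (31) were made without members on 2000 variable genes and 20 dimensions at a resolution of 1.5 (scanpy 1.11.5). Intervals are exact Poisson, conditional binomial and Clopper-Pearson intervals from scipy 1.17.1, with numpy 2.4.6, pandas 2.3.3, scikit-learn 1.9.0, igraph 0.11.9, matplotlib 3.10.9 and python 3.11.15. Values of many of the pathway genes are not reported here. The ratio script was tested on simulated data. Alternatives changed the cell filters, the class rule, doublets, free RNA, the total, the weight of cells, the fold and the UMI minimum.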

Additional observations from a re-analysis of the deposited data

Results flagged for a closer look

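5 members had ratios of MCT1-KO over FLOX whose counting intervals lay on opposite sides of 1 in different main classes, and the difference between the classes was not tested. How large a share of all genes does so is not reported here. Samhd1 had 1.21 in myeloid-like and 0.703 in tumor-like cells. Ifih1 had 1.15 in myeloid-like and 1.55 in PSC-like cells against 0.544 in tumor-like cells. Gbp5 had 1.43 in myeloid-like cells against 0.448 in tumor-like and 0.527 in PSC-like cells. Gbp7 had 1.28 in myeloid-like and 0.732 in tumor-like cells. Iigp1 had 1.16 in PSC-like cells against 0.653 in tumor-like and 0.743 in myeloid-like cells.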

How the results depend on the processing

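No paired analysis was possible because each group had 1 library. All 46 alternative values of the summed ratios stayed below 1. Tumor-like cells ran from 0.548 to 0.600 around 0.564, with 0.592 without a limit on genes, 0.583 by clusters, 0.548 without likely doublets, 0.582 with each cell counted equally and, chosen after seeing the data, 0.571 with tumor markers at 0.5 times the free RNA level, 0.600 without Irf1 and 0.548 in cells with no Hspa1a UMI. Myeloid-like cells gave 0.805 without likely doublets and 0.805 with free RNA subtracted, and, also chosen later, 0.894 without Bst2 and 0.877 in cells with no Hspa1a UMI. PSC-like cells gave 0.831 at a mitochondrial share up to 5% and 0.923 by clusters, and T/NK-like cells ran from 0.681 to 0.720. Free RNA gave 0.603 in barcodes of 10 to 50 UMIs. At a fold of 2, 9 members in tumor-like, 9 in myeloid-like, 1 in T/NK-like and 4 in PSC-like cells were past it, against 22, 14, 6 and 11 at 1.5, while 4.39%, 5.17%, 3.92% and 6.35% of all genes were past a fold of 2 in these classes. With 20 UMIs as the minimum, 12 of 26 members were past 1.5-fold in T/NK-like cells, against 21.8% of all genes. Clusters led by another class's markers, left out as a later choice, moved no summed ratio beyond its counting interval. Without replicates no setting tests the difference between the groups, and members with few UMIs are limited by depth.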
